A study of Rattus norvegicus with 4 samples.

Results

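Heat shock proteins are molecular chaperones that hold unfolded proteins in solution, refold them or pass them on for degradation. Members of the Hsp70 family bind exposed hydrophobic stretches in a cycle driven by ATP, with J proteins as starters and Hsp110 proteins as nucleotide exchange factors. Small heat shock proteins trap unfolding proteins without ATP, Hsp90 matures kinases and steroid receptors, among them the estrogen receptors, and the Hsp60 and Hsp10 ring folds proteins inside mitochondria. Many of these genes are switched on by heat shock factor 1, and in brain the inducible Hsp70 is a classical marker of cells stressed by ischaemia.

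The genes described here are Hspa1a, Hspb1, Hspa8, Hsph1, Hsp90ab1, Hspd1, Hspe1, Cryab, Dnaja1 and Hspa2, 10 genes of cytosolic and mitochondrial chaperones. They were read from the non-control probe sets whose only gene symbol in the platform annotation is one of these names, which gave 20 probe sets of 9 genes among 8740 in all. Hspa8, the constitutive Hsp70, had no such probe set, since its 2 probe sets carry a second symbol, Haus8l2. A further 4 probe sets carry both Hspa1a and Hspa1b, and 1 carries Hspb1 and Asb2, and these were not used for any gene. Hspa1a and Hspa1b are near-identical copies, so the probe set named Hspa1a here may also read Hspa1b.

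Expression was measured on array A of the Affymetrix Rat Genome U34 set in cerebral cortex on the side of a stroke. All animals were ovariectomised female rats in which the middle cerebral artery was closed from inside the vessel for 2 h, and they received 17beta-estradiol replacement or placebo. Each of the 2 estradiol and 2 placebo arrays carried the pooled RNA of 3 animals, so 6 animals stand behind a group, and pools are numbered 1 and 2 within each group after their labels (estradiol 1, placebo 2 and so on). The sample codes carry a 6, and the design text names tissue at 6 and 24 h, but the labels do not spell the time out. Strain, age and the dose of estradiol are not given in the labels. No uninjured or contralateral cortex was analysed here, so the values compare treatments after stroke and hold no measure of induction by the stroke itself.

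Values are the deposited linear intensities, and only values of the same probe set are compared with each other. Array medians were 57.25 and 57.8 with estradiol, against 55.0 and 56.75 with placebo, and the highest of 23 control probe sets for foreign transcripts, taken as background, lay between 30.1 and 37.8. Neuron markers measured on the arrays stood above background on all 4 arrays in 7 of 7 genes, and so did 6 of 8 striatum markers. The tissue is labelled as cortex, and with no reference tissue here this count does not measure striatum in it. Ratios of 3' to 5' control probe sets, which reflect how intact the RNA is, were 1.38 and 1.30 with estradiol, against 1.45 and 1.42 with placebo, for GAPDH, and 3.27 and 4.35 with estradiol, against 3.64 and 3.08 with placebo, for hexokinase. The GAPDH ratio was thus slightly lower in both estradiol pools, and its part in the values between treatments was not tested. In pooled tissue RNA, fewer cells of a type and less RNA per cell cannot be told apart.

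Promoter windows were searched for the letters of the heat shock element. It is the site bound by heat shock factor 1, which switches on many of these genes. RefSeq windows of assembly GRCr8, from 250 bases before to 50 after a gene's start, were found for 9 of the 10 genes. An element of 3 units, GAANNTTCNNGAA on either strand, was present in 5 of these 9 windows, against 0.798% of 33469 windows of the same length. In Hspa8, which carried 2 of them, the nearer element began 55 bases before the start. In the following runs, written on the strand of each gene, capitals mark the element, or overlapping elements.
Hsph1 (chr12:10427324-10427352, + strand): gccgcagaTTCTGGAAAGTTCtcctcagt
Dnaja1 (chr5:60638405-60638433, + strand): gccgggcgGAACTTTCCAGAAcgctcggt
Hspe1 (chr9:64084256-64084285, + strand): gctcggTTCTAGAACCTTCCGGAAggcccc
Hspd1 (chr9:64084256-64084285, - strand): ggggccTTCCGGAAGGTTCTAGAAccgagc
Hspa8 (chr8:50080451-50080479, + strand): cggaacccTTCTGGAAGGTTCtaagacag
The Hspe1 and Hspd1 runs are the same bases read from opposite strands. These genes lie head to head with annotated starts 290 bases apart, their windows share 211 bases, and the same pair of overlapping elements lies upstream of each.

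The windows of Hspa1a, Hspb1, Hsp90ab1 and Hspa2 held no match to the longer letters. Of these, Hspb1 and Hspa2 had matches to a shorter form of 2 units, GAANNTTC or TTCNNGAA, which is contained in the longer one. The shorter form was present in 7 of the 9 windows, against 15.9% of all windows. The matches of Hspb1 are shown in capitals because Hspb1 is among the genes that varied most below.
Hspb1 (chr12:26432402-26432431, - strand): aGAAGTTTCcagatgggggcaGAACCTTCc
The full estrogen response element, GGTCANNNTGACC, which reads the same on both strands, was present in 0 of the 9 windows and in 0.0269% of all windows. A match is a description of letters, and its absence says only that these letters are not in this window.

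The inducible chaperone genes Hspa1a and Hspb1 differed far more between pools of the same treatment than between treatments. Hspa1a encodes the stress-inducible Hsp70. Its probe set Z75029_s_at stood at 4576 and 2003 in pools 1 and 2 of the estradiol group, against 4416 and 2489 in pools 1 and 2 of the placebo group. The first pool was thus the higher in each treatment, by 2.28 times with estradiol and 1.77 times with placebo, and the treatments overlapped. The mean was 3289.55 ± 1819 with estradiol and 3452 ± 1363 with placebo (SD, n = 2 each). The log2 fold change, estradiol over placebo on the scale log2(intensity + 16), was -0.13 ± 0.41 (SE), with a 95% interval from -1.08 to 0.82 in limma. Its sign was set by single pools, with -0.72 without estradiol 1, 0.46 without estradiol 2, 0.28 without placebo 1 and -0.54 without placebo 2, and it was -0.0038 with quantile normalisation.

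Hspb1 encodes Hsp27, a small heat shock protein that binds actin and unfolding proteins and is induced in glia and neurons after injury. Its probe set rc_AI176658_s_at had 2381 and 1013.5 in pools 1 and 2 of the estradiol group, against 2718 and 796 in pools 1 and 2 of the placebo group. The probe set rc_AA998683_g_at had 2183 and 1028 with estradiol, against 1918 and 623 with placebo. The probe set M86389cds_s_at had 1231 and 513 with estradiol, against 1649 and 587 with placebo. In each of these 3 probe sets the first pool of either treatment was above the second pool of both treatments. On the log2 scale the first pool exceeded the second by 1.22, 1.07 and 1.24 with estradiol and by 1.75, 1.60 and 1.47 with placebo. The last probe set, rc_AA998683_at, had 653 and 393 with estradiol, against 499 and 442 with placebo, with differences of 0.71 with estradiol and 0.17 with placebo. It comes from the same sequence as rc_AA998683_g_at, so the probe sets of the gene are not independent of each other.

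Between treatments the 4 Hspb1 probe sets gave log2 fold changes of 0.08 ± 0.58, 0.45 ± 0.53, -0.30 ± 0.53 and 0.11 ± 0.27 (SE), in the order above, and the groups overlapped in all 4. Each of these estimates turned in sign with 1 array left out. For rc_AI176658_s_at it was -0.53 without estradiol 1, -0.80 without placebo 2 and 0.95 without placebo 1. For rc_AA998683_g_at it was -0.09 without estradiol 1 and -0.35 without placebo 2. For M86389cds_s_at it was 0.32 without estradiol 2 and 0.43 without placebo 1, and for rc_AA998683_at it was -0.25 without estradiol 1. The 95% interval of rc_AI176658_s_at ran from -1.26 to 1.42.

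**Figure D1:**
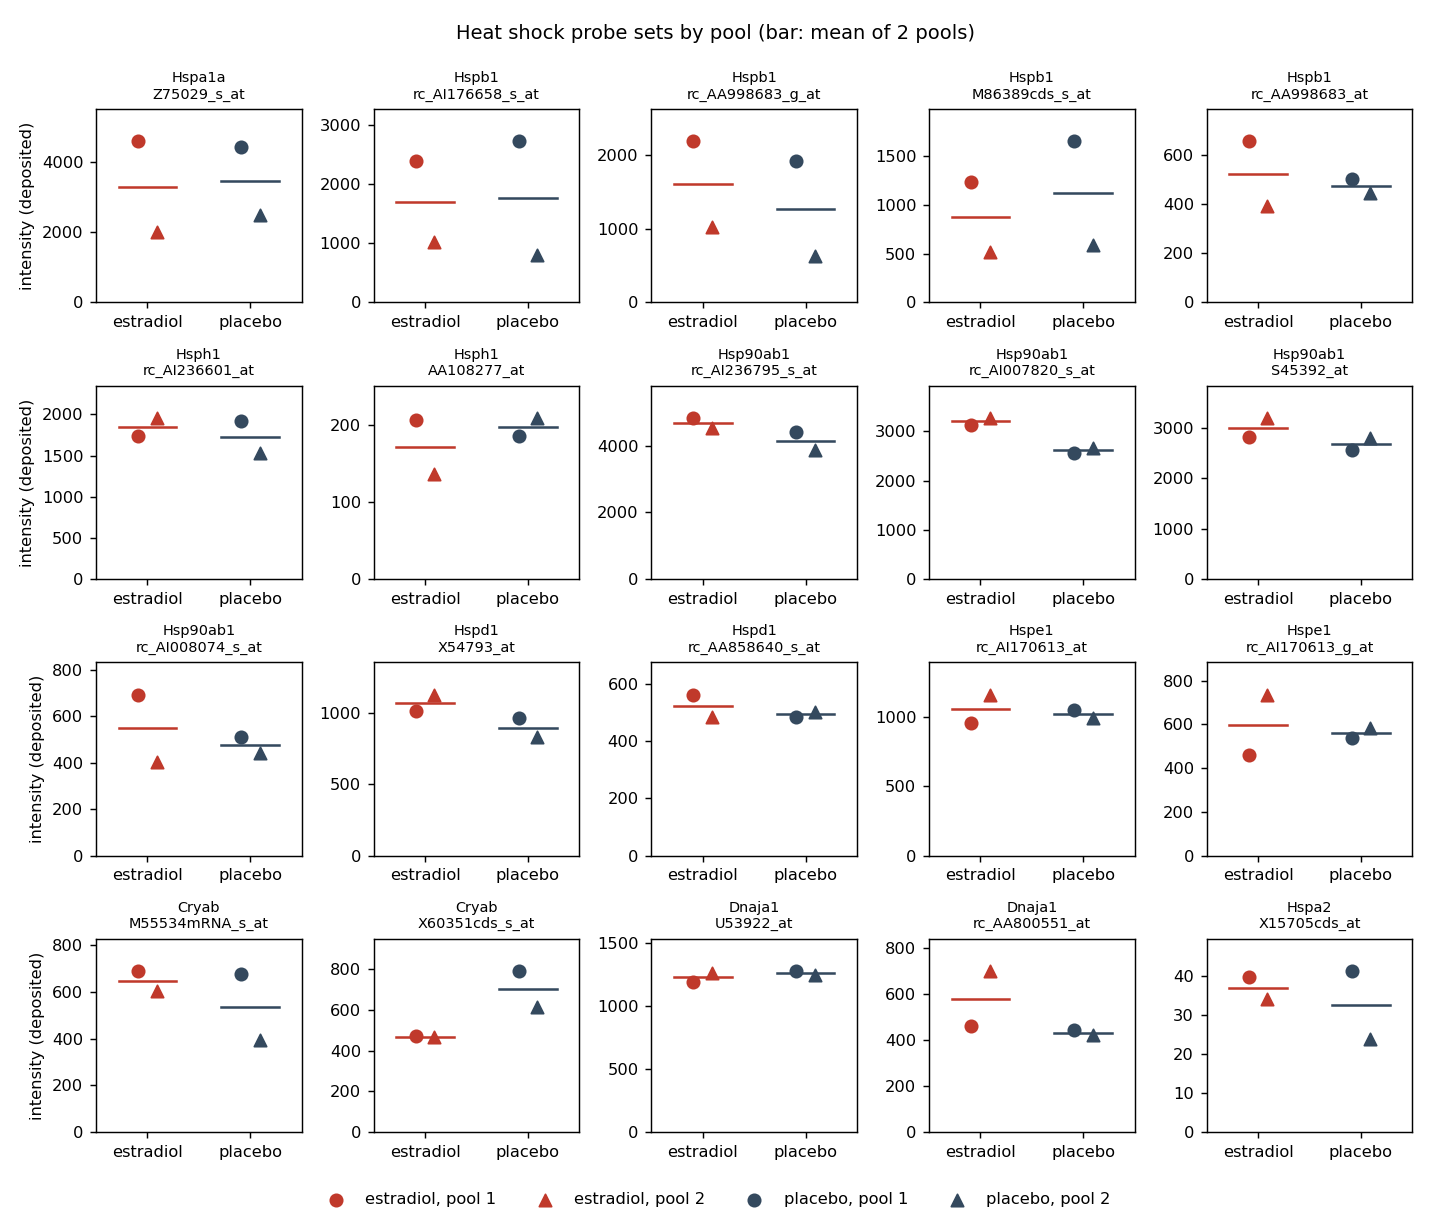
Deposited intensity (linear vertical axis from 0, separate for each probe set) of the 20 heat shock probe sets in the estradiol pools (left) and placebo pools (right), with circles for pool 1, triangles for pool 2 and a bar at the mean of the 2 pools. In Hspa1a and in 3 of 4 Hspb1 probe sets the circles stand far above the triangles in both treatments, while the bars of the treatments lie close together.

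A pool difference of this size and direction was uncommon on the arrays. Both pools numbered 1 lay above both pools numbered 2 in 7 of the 19 member probe sets that passed the intensity filter, against 17.4% of all 5244 tested probe sets. These 7 were Hspa1a, the 4 of Hspb1, 1 of Hsp90ab1 and 1 of Cryab, while 1 Hspe1 probe set had the opposite order, against 21.3% of all. A log2 difference of at least 0.5 in both treatments, a limit chosen after the values were seen, was found for Hspa1a and 3 Hspb1 probe sets, 4 of 19, against 2.27% of all tested probe sets. The opposite order at this limit was found for 0 of 19, against 2.17% of all. The smaller of the differences, pool 1 minus pool 2, in the 2 treatments was 0.82 for Hspa1a. This was reached by 0.782% of tested probe sets, and the values of these 3 Hspb1 probe sets by 0.305 to 0.42%. These shares count only probe sets with the first pool the higher in both treatments. Splits as large in the reverse order are not in them. Hspa1a and these 3 Hspb1 probe sets are the members with the largest split, and probe sets of 1 gene are not independent. The shares thus give their place among all probe sets and test nothing. The pool numbers are only names in the labels and are not known to pair the pools across treatments.

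Oligodendrocyte and neuron markers moved with the same split. All 6 measured oligodendrocyte markers, none at background on any array, were higher in both pools numbered 1, against 17.4% of all tested probe sets. Their summed intensity was 16723 and 12716 in pools 1 and 2 of the estradiol group, against 20806 and 13350.1 in pools 1 and 2 of the placebo group. Of 7 neuron markers, 5 were higher in both pools numbered 2, against 21.3% of all tested probe sets. Their sums were 6774 and 7281 in the estradiol pools, against 6011 and 8353 in the placebo pools. Of 8 astrocyte markers, 3 were higher in both pools numbered 1 and 1 in both pools numbered 2. The astrocyte sums were 11273 and 11029.6 in the estradiol pools, against 12344.5 and 11473.9 in the placebo pools. Microglia and macrophage markers had 0 of 6 genes in the order of Hspa1a, with sums of 515 and 660.5 in the estradiol pools, against 617 and 593 in the placebo pools, and Itgam and Csf1r were at background on every array. The 3' to 5' ratio of the actin control also followed the pool number, at 1.28 and 1.39 in the first estradiol and placebo pools, against 1.58 and 1.47 in the second ones, whereas the GAPDH and hexokinase ratios overlapped between the pool numbers. Choroid plexus and meninges markers differed widely between pools without following the pool number, with sums of 2026 and 6616 in the estradiol pools, against 11626 and 1108 in the placebo pools. The part of these cell types and of this ratio in the Hspa1a and Hspb1 values was not tested.

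**Figure D2:**
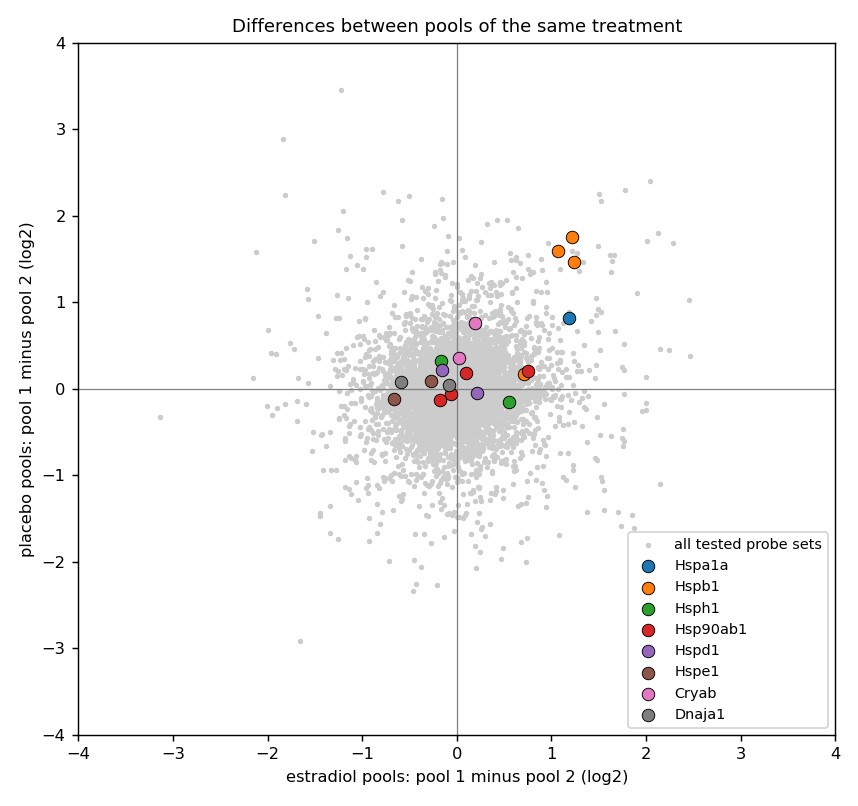
Log2 difference of pool 1 minus pool 2 in the estradiol group (horizontal axis) and in the placebo group (vertical axis) for all tested probe sets (grey) and for the heat shock probe sets (coloured by gene). Hspa1a and 3 Hspb1 probe sets lie at the upper right, with differences between 0.82 and 1.75 in both treatments, and the other members lie within or near the grey cloud. Of all tested probe sets, 2 lie outside the axes.

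Hspa1a and Hspb1 also resembled genes outside the chaperones in their pattern over the 4 pools. Likeness was measured as the root mean square difference of log2 values centred over the 4 pools, and a small number of pools makes near matches easy to find. Closest to Hspa1a was Arc, an activity-regulated gene of synapses, at 0.028, with intensities of 1883 and 817 in the estradiol pools, against 1819 and 975 in the placebo pools. Of the next 4, Cyp3a9 was at 0.067 and Ndufb1 at 0.12, and Slc12a2 and Fer lay below the background of the second estradiol array, so no likeness is given for them. Closest to rc_AI176658_s_at of Hspb1 was Egr1, an activity-induced transcription factor, at 0.13, with 488 and 241.5 in the estradiol pools, against 684 and 202 in the placebo pools. The next 4, Egfl7, Rab4b, Gng8 and Klk1c9, lay below background in both second pools, so no likeness is given for them.

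The partners of Hsp70 described here, Hsph1 and Dnaja1, had no probe set with the pool order of Hspa1a. Hsph1 encodes Hsp110, the nucleotide exchange factor that releases substrates from Hsp70. Its brighter probe set, rc_AI236601_at, had 1739 and 1957 with estradiol, against 1918 and 1536 with placebo, giving a log2 fold change of 0.10 ± 0.20 (SE) that was -0.06 without placebo 2. Its probe set AA108277_at had 206 and 135.5 with estradiol, against 186 and 209 with placebo, giving a log2 fold change of -0.22 ± 0.25 that was 0.06 without estradiol 2. The treatments overlapped in both, and the first estradiol pool was the lower in one probe set and the higher in the other.

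Dnaja1 encodes a J protein that delivers unfolded proteins to Hsp70 in the cytosol. Its probe set U53922_at had 1190.3 and 1261 with estradiol, against 1275.5 and 1242 with placebo, all 4 pools within a narrow range. The log2 fold change was -0.04 ± 0.18 (SE), with a 95% interval from -0.47 to 0.39, and it was 0.02 with quantile normalisation and 0.0022 without estradiol 1. Its probe set rc_AA800551_at had 459.6 and 699 with estradiol, against 445 and 419.7 with placebo. Here both estradiol pools lay above both placebo pools, and the log2 fold change was 0.38 ± 0.25 (SE), but it rested largely on estradiol 2, without which it was 0.09.

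Cryab encodes alpha-B crystallin, a small heat shock protein abundant in oligodendrocytes and reactive astrocytes, and its 2 probe sets went in opposite directions. The probe set X60351cds_s_at stood at 473.5 and 465 with estradiol, against 790.1 and 617 with placebo, so both estradiol pools were below both placebo pools. This order was found for 1 of the 19 member probe sets, against 14.3% of all tested probe sets. The log2 fold change of X60351cds_s_at was -0.56 ± 0.21 (SE), with a 95% interval from -1.05 to -0.07 and an adjusted p of 0.998 in limma. It lay between -0.73 without placebo 2 and -0.38 without placebo 1. Its unadjusted limma p of 0.031 was the only value below 0.05 among the 19 member probe sets, against 3.07% of all tested probe sets. This p was 0.056 without the intensity trend. Under the other settings that kept all arrays it lay between 0.023 without the filter and 0.032 with quantile normalisation. Leaving out 1 array left 1 array in a group, so only the estimates of those fits are given here. The probe set M55534mRNA_s_at had 688.5 and 603 with estradiol, against 677 and 393 with placebo. Its groups overlapped, and its log2 fold change was 0.31 ± 0.28 (SE), or -0.07 without placebo 2.

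Summed markers of several cell types also differed between the treatments. Summed astrocyte markers, with 7 of 8 genes above background on every array, were 11273 and 11029.6 with estradiol, against 12344.5 and 11474 with placebo. Summed endothelial and mural markers were 545 and 527 with estradiol, against 846 and 685 with placebo, with 5 of 7 genes above background on every array and Vwf at background on all. Summed blood markers were 1872 and 4249 with estradiol, against 6173 and 5319 with placebo, with 5 of 5 genes above background on every array. All 3 sums were thus lower in both estradiol pools, as was X60351cds_s_at of Cryab but not its other probe set. The brightest genes weigh most in such sums, and the genes of each list that differed between treatments were not counted. The oligodendrocyte, neuron, microglia and choroid plexus sums given above overlapped between treatments. The striatum sums given below were higher in both estradiol pools. The part of these cell types in the Cryab values was not tested.

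Hsp90ab1 encodes the constitutive cytosolic Hsp90 beta, and 3 of its 4 probe sets had both estradiol pools above both placebo pools. Its probe set rc_AI007820_s_at had 3138 and 3274 with estradiol, against 2556 and 2673.5 with placebo. Its probe set rc_AI236795_s_at had 4832 and 4527.5 with estradiol, against 4410.4 and 3886 with placebo, and S45392_at had 2813 and 3192 with estradiol, against 2566 and 2799 with placebo. Among all member probe sets this order held for 5 of 19, the others being 1 each of Hspd1 and Dnaja1, against 15.4% of all tested probe sets, and probe sets of 1 gene are not independent.

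The log2 fold changes of these Hsp90ab1 probe sets were 0.29 ± 0.18, 0.18 ± 0.18 and 0.16 ± 0.19 (SE). Each stayed above 0 with any 1 array left out, which follows from both estradiol pools being the higher and is no further support. The value of S45392_at was 0.070 without estradiol 2 and 0.098 without placebo 1, and that of rc_AI236795_s_at was 0.084 without placebo 2. With quantile normalisation, the values were 0.42, 0.33 and 0.28 in the order above. The highest of them had a 95% interval from -0.13 to 0.71. The dimmest probe set, rc_AI008074_s_at, had 693 and 405 with estradiol, against 512 and 442 with placebo, with overlapping groups and a log2 fold change of 0.15 ± 0.28 that was -0.22 without estradiol 1. Summed striatum markers were 1664.5 and 1938 with estradiol, against 814 and 1045 with placebo, with Drd2 at background on every array. The sums of the other marker lists were lower in both estradiol pools or overlapped between treatments. The part of the striatum markers in the Hsp90ab1 values was not tested.

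The mitochondrial pair Hspd1 and Hspe1, which encode the Hsp60 ring and its Hsp10 lid, gave log2 fold changes between 0.05 and 0.25. Hspd1 probe set X54793_at had 1009.9 and 1128 with estradiol, against 962 and 828 with placebo. Both estradiol pools were the higher, and the log2 fold change was 0.25 ± 0.20 (SE), between 0.15 without placebo 2 and 0.36 without placebo 1. Hspd1 probe set rc_AA858640_s_at had 563 and 485 with estradiol, against 485 and 504 with placebo, with overlapping groups and a log2 fold change of 0.08 ± 0.20 that was -0.03 without estradiol 1.

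Hspe1 probe set rc_AI170613_at had 961 and 1165 with estradiol, against 1055 and 994 with placebo. Hspe1 probe set rc_AI170613_g_at, from the same sequence, had 459.5 and 736 with estradiol, against 536 and 585 with placebo. The estradiol pools enclosed the placebo pools in both, and in rc_AI170613_g_at both second pools were above both first pools, with a log2 difference of -0.66 (pool 1 minus pool 2) with estradiol and -0.12 with placebo. The log2 fold changes were 0.05 ± 0.20 and 0.05 ± 0.26 (SE), and they were -0.09 and -0.28 without estradiol 2. Without placebo 1, rc_AI170613_g_at had -0.0060. The second estradiol pool was above the first in both Hspe1 probe sets and in X54793_at of Hspd1, but below it in rc_AA858640_s_at of Hspd1. The part of the promoter stretch that these genes share in the values was not tested.

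Hspa2, an Hsp70 gene best known from the testis, was near background. Its probe set X15705cds_at had 39.7 and 34.1 with estradiol, against 41.3 and 24.0 with placebo. Only the first pool of each treatment lay above the background of its array, and the probe set did not pass the filter, so it was not tested.

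In limma, 0 of the 19 tested member probe sets passed an adjusted p of 0.05 in either direction, beside 0.0% of all tested probe sets. At an unadjusted p below 0.05 there were 0 member probe sets higher and 1 lower, against 91 and 70 of the 5244 tested. An exact permutation test of 2 pools against 2 cannot give a two-sided p below 0.333 for a single probe set. Of the 19 estimates, 14 were above 0 and 5 below, with a median of 0.10, against 51.6% above 0 and a median of 0.01 over all tested probe sets. The median was 0.0022 without estradiol 1, 0.0042 without placebo 2, 0.18 without estradiol 2 and 0.26 without placebo 1. The 95% interval lay wholly within a log2 fold change of 1 in either direction for 14 of 19, against 3806 of the 5244 tested. The exceptions were Hspa1a, 3 probe sets of Hspb1 and X60351cds_s_at of Cryab.

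**Figure D3:**
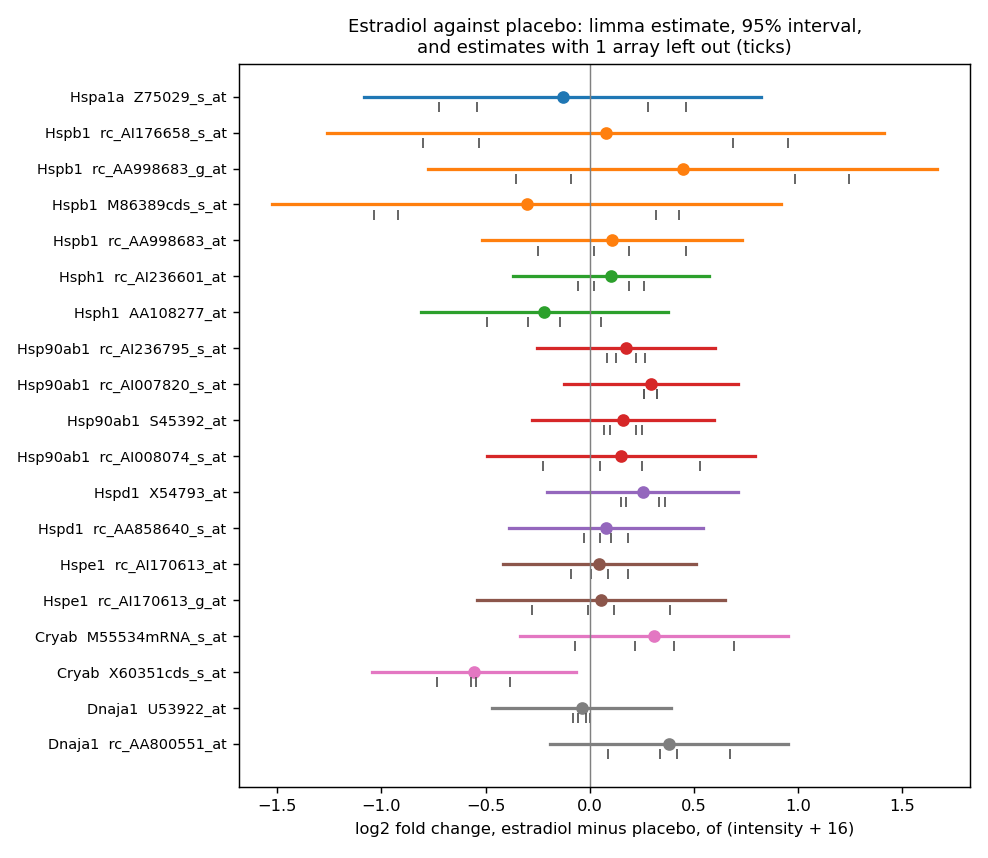
Log2 fold change of estradiol over placebo (horizontal axis) for the 19 tested probe sets, with the limma estimate (point), its 95% interval (line) and the estimates with 1 array left out (ticks). The widest intervals are those of Hspb1, and 18 of 19 intervals include 0, against 5083 of the 5244 tested. The ticks lie on both sides of 0 for 13 of the 19 probe sets, those in which the treatments overlap.

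Other chaperone genes were taken from 8 lists of 82 genes. Of these, 37 had a probe set of their own and 35 passed the filter, each gene represented by its brightest tested probe set. None of the 35 passed in limma in either direction, and 0 had an unadjusted p below 0.05. In all, 20 were above 0 and 15 below, with a median log2 fold change of 0.06. Both estradiol pools lay above both placebo pools in 6 of the 35, against 15.4% of all tested probe sets. They lay below both placebo pools in 6 of the 35, against 14.3% of all. The pool order of Hspa1a, both first pools above both second pools, was found in 6 of the 35, against 17.4% of all tested probe sets. These were Hspa1l, Ppid and the endoplasmic reticulum genes Hsp90b1, Canx, Pdia4 and Serpinh1, and Hspa1l lay below background in placebo 2. Of Hsf1, Hsf2 and Hsf4, 1 was tested. Hsf1, heat shock factor 1, had 505 and 547 with estradiol, against 625 and 659.9 with placebo, giving a log2 fold change of -0.28 ± 0.19 (SE) with both estradiol pools below both placebo pools, which was seen in 14.3% of all tested probe sets.

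Among 8 J proteins and Hsp70 cochaperones, 4 were above 0 and 4 below, with a median of 0.07. Dnajb1, Hsp40, a heat-inducible J protein, had 649 and 647 with estradiol, against 545 and 476 with placebo, giving a log2 fold change of 0.34 ± 0.20 (SE), and did not share the pool difference of Hspa1a. St13, the Hsp70-interacting protein Hip, had 0.37 ± 0.24, and without estradiol 2 it had 0.13. Sgta, a cochaperone for tail-anchored proteins, had -0.26 ± 0.22, or -0.17 without placebo 2, and Dnajb5, a J protein, had -0.23, or 0.02 without estradiol 2. Of the other Hsp70 and Hsp110 genes, 3 of 3 were above 0. Hspa4, of the Hsp110 group, had 0.31, or 0.10 without placebo 1. Hspa1l had 0.15, or -0.18 without placebo 2, an array on which its 28.8 lay below the background of 30.1. The mitochondrial Hsp70 gene Hspa9 had 0.06, or -0.32 without estradiol 2 and -0.36 without placebo 1. Hspa9 had 158 and 279 in the estradiol pools, against 146.5 and 275 in the placebo pools, the reverse of the pool order of Hspa1a.

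Of the genes of Hsp90 and its cochaperones, 2 were above 0 and 4 below, with a median of -0.11. Cdc37, which loads kinases onto Hsp90, had 1134 and 999 with estradiol, against 1458 and 1277 with placebo, giving a log2 fold change of -0.35 ± 0.20 (SE). Both estradiol pools were the lower, an order seen in 14.3% of all tested probe sets. Fkbp4, an immunophilin of steroid receptor complexes, had -0.19, Ppid, another immunophilin, 0.16, or 0.046 without placebo 2, and Stip1, which links Hsp70 to Hsp90, 0.22, or -0.01 without estradiol 2. The small heat shock protein genes Cryaa, Hspb2 and Hspb6 had 0.06, 0.04 and -0.04, and each turned in sign with a pool left out, to -0.18, -0.25 and 0.02 without estradiol 1 and to -0.08, -0.27 and 0.14 without placebo 1.

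Of the other mitochondrial genes, Timm44, an anchor of the import motor, had 0.47 ± 0.35 (SE), or 0.19 without estradiol 1. Its intensities were 71.1 and 42.7 with estradiol, against 36.2 and 35.0 with placebo. The 36.2 of placebo 1 lay below the background of that array, 37.8. Grpel1, the nucleotide exchange factor of mitochondrial Hsp70, had 0.12, or -0.02 without estradiol 2. In the cytosolic chaperonin list, Cct3, a ring subunit, had 0.27, or 0.043 without estradiol 2, Pfdn2, a prefoldin subunit, -0.15, or -0.072 without estradiol 1, and Cct6a, also a ring subunit, -0.23, or 0.05 without placebo 1. Of 9 endoplasmic reticulum chaperone genes, 6 were above 0 and 3 below, with a median of 0.14. The highest was Hspa5, the resident Hsp70 of that compartment, with 0.59 ± 0.29 (SE), or 0.20 without placebo 2. Serpinh1, a collagen chaperone, had 0.36 ± 0.30, or 0.05 without placebo 2. The lowest were Hyou1, an Hsp110 relative, with -0.29, or 0.04 without estradiol 1, and Pdia4, a disulfide isomerase, with -0.13, or 0.14 without placebo 1.

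**Figure D4:**
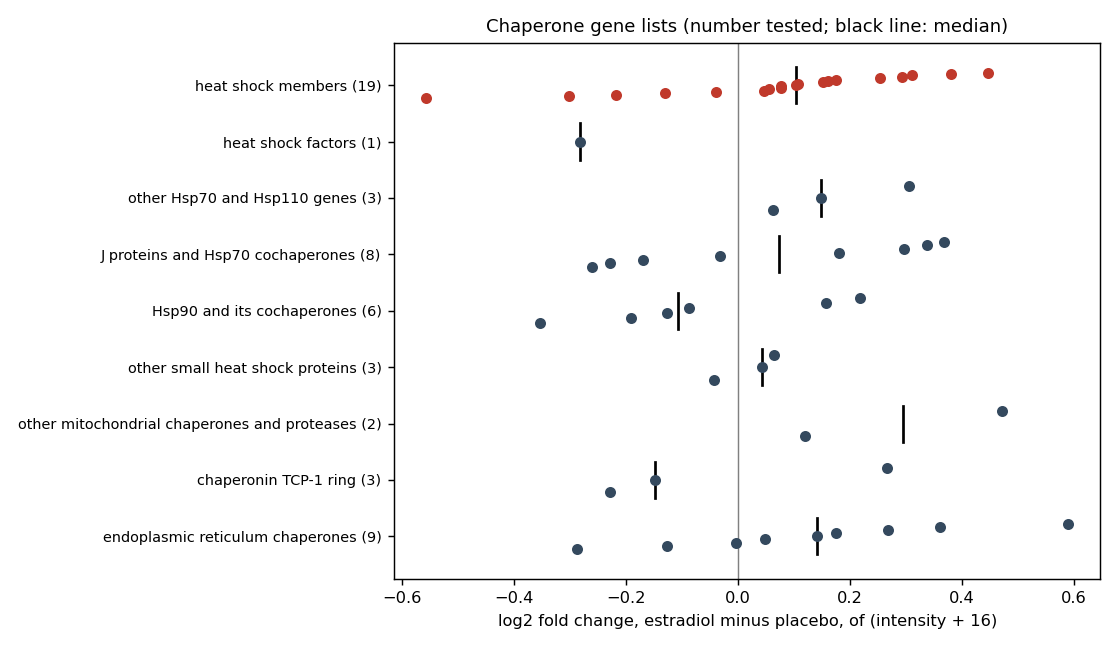
Log2 fold change of estradiol over placebo (horizontal axis) for the 19 heat shock probe sets (red) and for the genes of 8 other chaperone lists (blue), with the number tested in brackets and a black line at each median. The values lie on both sides of 0 in most lists, with medians between -0.28 and 0.30.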

How the data were processed

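The authors deposited a linear intensity for each of 8799 probe sets on each array. Their program and scaling target are not given in the sources used here. The series design text names scaling factors among the quality checks. After removal of 59 control probe sets, log2(value + 16) was taken, and probe sets averaging under the 40th percentile, 37.5, were dropped, which kept 5244. Differences were fitted with limma 3.58.1 in R 4.3.3 (lmFit, eBayes with trend, 2 residual and 5.63 prior degrees of freedom), without a block, two-sided, with Benjamini-Hochberg adjustment over all tested probe sets. The fit was tested on simulated data. Tables and figures used Python 3.11.15, pandas 2.3.3 and matplotlib 3.10.9. The number of arrays limits the precision.

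Named genes were all members, the 2 highest and 2 lowest of each chaperone list with any at an unadjusted p below 0.05, and the 5 genes most alike to Hspa1a and Hspb1. Members and lists were chosen with earlier results of these data known. Of the 10 members, all were found by symbol in the RefSeq table of GRCr8. Alternatives were offsets of 1 and 64, no filter, a 60th percentile filter, quantile normalisation, median centring, no trend, a replicate block and each array left out.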

Additional observations from a re-analysis of the deposited data

How the results depend on the processing

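The filters, the trend and the replicate block leave a member's estimate as it is. Of 76 member values under the 4 other settings that kept all arrays (offsets and scaling), 75 kept their direction, and the exception was U53922_at of Dnaja1 with quantile normalisation at 0.016. No probe set passed the adjusted threshold under any setting. Between 0 and 2 member probe sets had an unadjusted p below 0.05, with 0 without the trend or without estradiol 2 and 2 with quantile normalisation or without placebo 1. With the replicate block the median over the member probe sets was again 0.10, with 0 called, and same-numbered pools share only a number. Their deviations from the group means had a correlation of 0.036 over all tested probe sets. With 1 array left out, 13 of the 19 probe sets turned in sign under at least 1 omission. The 6 that kept their sign are those in which the treatments did not overlap, where it cannot turn. Both estradiol pools were above in 5 and below in 1, against 15.4% and 14.3% of all tested probe sets. The median over the members lay between 0.0022 and 0.26. The value of 0.26, without placebo 1, moved by more than the spread between pools. The ranges were -0.72 to 0.46 for Hspa1a, -0.80 to 0.95, -0.35 to 1.25, -1.04 to 0.43 and -0.25 to 0.46 for rc_AI176658_s_at, rc_AA998683_g_at, M86389cds_s_at and rc_AA998683_at of Hspb1, -0.056 to 0.26 and -0.49 to 0.057 for rc_AI236601_at and AA108277_at of Hsph1, -0.22 to 0.53 for rc_AI008074_s_at of Hsp90ab1, -0.028 to 0.18 for rc_AA858640_s_at of Hspd1, -0.091 to 0.18 and -0.28 to 0.39 for rc_AI170613_at and rc_AI170613_g_at of Hspe1, -0.070 to 0.69 for M55534mRNA_s_at of Cryab and -0.080 to 0.0022 for U53922_at of Dnaja1. A group left with 1 array was assumed to vary like the other. The largest shift of the median of all probe sets with scaling was -0.033, with median centring.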
